A study of Homo sapiens with 6 samples.

Results

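The ATF4 amino acid response genes described here are ATF4, ASNS, CHAC1, DDIT4, TRIB3, SESN2, SLC7A5, SLC3A2, PSPH and PHGDH. They were chosen by gene symbol, as genes of amino acid synthesis, amino acid uptake and stress signalling under the transcription factor ATF4, and they make up 10 of the 21648 genes of the study's deposited tables. All 10 were in the co-culture table and 9 in the knockdown table, which lists genes with an m7G peak. PHGDH was not analysed in the knockdown comparison.

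The cells were DLD1, an established human colorectal cancer line. The S-CAFs-w13 library came from DLD1 cells of wild-type METTL1 genotype grown with fibroblasts called S-CAFs, and the DLD1-W13CM library from DLD1 cells of the same genotype, taken to be the co-culture with CAFs because no other library can be. The title DLD1-W13CM does not name a fibroblast. All cells were kept in DMEM with 10% serum, and neither amino acid withdrawal nor a stress agent is named. The METTL1 knockdown libraries, input and m7G immunoprecipitate (IP), came from DLD1 cells stably carrying 1 construct, sh2, and the control libraries from DLD1 cells titled sh-NT, so other effects of sh2 and those of less METTL1 cannot be told apart. METTL1 is a methyltransferase that writes 7-methylguanosine (m7G) into RNA. Each group held 1 library here, although the series text speaks of 2 replications of the knockdown experiment. Differences below therefore describe pairs of libraries, and their intervals cover counting error alone.

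ATF4 is made when the initiation factor eIF2 is phosphorylated, for example by the kinase GCN2 when amino acids run short or by PERK when proteins misfold in the endoplasmic reticulum (ER). Translation in general then falls while that of ATF4 mRNA, held back by short open reading frames in its 5' leader, goes up. ATF4 binds DNA with C/EBP partners at sites called C/EBP-ATF response elements and turns on genes for making and importing amino acids, for restraining the growth kinase mTORC1, and for its own feedback. Since ATF4 is set mainly by translation, its mRNA need not follow its protein, which was not measured.

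The core of the response element, TGATGNAA, was looked for on both strands of RefSeq promoter windows (GRCh38.p14) that run from 250 bases before a gene's start to 50 bases after it. Of the 10 members 9 had an entry, and 3 of these, ASNS, CHAC1 and SLC3A2, held a match. Counted by window, since a gene can have several starts, 3 of the members' 15 windows held one, beside 3.62% of all 35116 windows. The stretches are shown on the gene's strand, with the match in capitals, because these are the members with a match in a searched window. Sites outside the windows were not looked for. Between S-CAFs-w13 and DLD1-W13CM these 3 did not move together: ASNS and CHAC1 were higher and SLC3A2 was lower. A match is a description of the letters and no evidence of binding.

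ASNS: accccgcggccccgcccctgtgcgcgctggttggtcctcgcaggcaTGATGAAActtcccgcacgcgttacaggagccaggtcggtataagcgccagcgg
CHAC1: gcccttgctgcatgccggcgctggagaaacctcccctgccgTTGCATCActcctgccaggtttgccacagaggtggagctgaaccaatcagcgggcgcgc
SLC3A2: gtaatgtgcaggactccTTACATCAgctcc

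The ASNS stretch lies at chr7:97872423-97872522 on the minus strand, with the match starting 68 bases before the gene start (position -68). It extends to TGATGAAAC, a longer form of the element that 0.225% of all windows held. The CHAC1 stretch lies at chr15:40953221-40953320 on the plus strand, and its match, TGATGCAA on the opposite strand, lies at position -209. The SLC3A2 stretch lies at chr11:62881719-62881748 on the plus strand. Its match, TGATGTAA on the opposite strand, begins at position 38 after 1 of the gene's listed starts. The m7G peak of SLC3A2, at 62856102 to 62856371, lies by a different listed start. Which start these cells used was not tested. DDIT4, TRIB3, SESN2, SLC7A5, ATF4 and PHGDH had windows without these letters.

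The effective library sizes recovered from the steps of the FPKM values (fragment counts scaled to gene length and library size) were 6215550 for S-CAFs-w13, 6337930 for DLD1-W13CM, 11625200 for METTL1 knockdown input and 10454200 for control input. METTL1 itself stood at 3.28 FPKM in knockdown input and 5.8 FPKM in control input, a ratio of 0.566 (95% counting interval 0.436 to 0.731). All 7 colon epithelial markers were in the co-culture table, with summed levels of 2919 FPKM in S-CAFs-w13 and 1954 FPKM in DLD1-W13CM; 4 lay above a log2 ratio of 0 and 3 below. They ran from CEACAM5, at 4.13 FPKM in S-CAFs-w13 and 0.848 FPKM in DLD1-W13CM, through EPCAM, at 149 FPKM in S-CAFs-w13 and 154 FPKM in DLD1-W13CM, to VIL1, at 1.12 FPKM in S-CAFs-w13 and 2.1 FPKM in DLD1-W13CM. Of 20 fibroblast markers 11 were in the co-culture table, with summed levels of 13.9 FPKM in S-CAFs-w13 and 11.3 FPKM in DLD1-W13CM. Counting intervals lay wholly above 1 for 3 of the 11, COL1A1, COL6A1 and PDGFRB, each under 1 FPKM in both libraries, and wholly below 1 for 1, FN1, at 1.71 FPKM in S-CAFs-w13 and 3.12 FPKM in DLD1-W13CM. The 3 that averaged 1 FPKM or more, FN1, ACTA2 and S100A4, had a median log2(FPKM + 1) ratio of -0.16. Of 6 leukocyte markers 2 were listed, with summed levels of 2.17 FPKM in S-CAFs-w13 and 2.24 FPKM in DLD1-W13CM, and of 4 endothelial markers 3, with 0.406 FPKM in S-CAFs-w13 and 0.158 FPKM in DLD1-W13CM. Their part in the results below was not tested. In such bulk RNA, fewer cells of a kind and less RNA per cell cannot be told apart.

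Beside S-CAFs the members went different ways while ATF4 mRNA stood level in the FPKM as deposited. DDIT4, ASNS and CHAC1 were at least 2-fold higher, while SLC7A5, PSPH and SLC3A2 were lower by 2-fold or more, in S-CAFs-w13 than in DLD1-W13CM. ATF4, TRIB3, SESN2 and PHGDH changed by less than 2-fold. The 2-fold count was made on log2(FPKM + 1), a scale that shrinks the change of low genes, among genes whose 2 libraries averaged 1 FPKM or more. On that scale 3 of 10 members were higher, beside 9.08% of all genes, and 3 of 10 were lower, beside 7.92% of all genes. The members were chosen with earlier results of these data known, so these shares describe them and test nothing. The members' median log2(FPKM + 1) ratio was 0.01, beside 0.02 over all 14739 genes at that level, so the median does not show a group whose members moved apart. The question behind the comparison, as the series title puts it, is what senescent CAFs pass on to tumour cells.

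The transcription factor ATF4 stood at 169 FPKM in S-CAFs-w13 and 167 FPKM in DLD1-W13CM, a ratio of 1.01 (counting interval 0.959 to 1.07). TRIB3, a pseudokinase that ATF4 induces and that binds and restrains ATF4, stood at 39.9 FPKM in S-CAFs-w13 and 34.4 FPKM in DLD1-W13CM, a ratio of 1.16 (1.05 to 1.28). The direction of that TRIB3 difference rests on the scaling, since the log2 ratio was 0.21 as deposited and -0.01 after both libraries were rescaled without the genes of the mitochondrial genome. The authors' deposited table gave log2 fold changes of -0.13 for ATF4 and 0.07 for TRIB3. ATF4 moved with the scaling too, from a log2(FPKM + 1) ratio of 0.02 as deposited to -0.20 after the rescaling without the mitochondrial genome. PHGDH likewise went from 0.01 to -0.20. The median of all genes was -0.16 after that rescaling.

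Of the synthesis enzymes, ASNS, which makes asparagine from aspartate and glutamine, stood at 3.32 FPKM in S-CAFs-w13 and 1.03 FPKM in DLD1-W13CM, from at least 92 and 29 reads. That is a ratio of 3.23 (2.11 to 5.09). ASNS was the lowest member in each library that was measured. ATF4 mRNA stood at 50.9 times the ASNS level in S-CAFs-w13 and 163 times in DLD1-W13CM. RefSeq lists 3 genes that overlap ASNS, CZ1P-ASNS among them, and their effect on its counts was not tested. PHGDH, the first enzyme of serine synthesis, stood at 19.7 FPKM in S-CAFs-w13 and 19.5 FPKM in DLD1-W13CM (ratio 1.01, 0.928 to 1.1). PSPH, the last enzyme of the same pathway, stood at 8.16 FPKM in S-CAFs-w13 and 23.3 FPKM in DLD1-W13CM, from at least 140 and 407 reads, which is 2.85-fold lower (2.35 to 3.48). The first and last steps of serine synthesis thus differed in how their mRNAs compared between these libraries.

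SLC7A5, the carrier that brings in leucine and other large neutral amino acids, stood at 63.2 FPKM in S-CAFs-w13 and 175 FPKM in DLD1-W13CM, from at least 1864 and 5274 reads. It was 2.77-fold lower (2.63 to 2.93). SLC3A2, the heavy chain that pairs with SLC7A5 and takes it to the cell surface, stood at 27.7 FPKM in S-CAFs-w13 and 57.1 FPKM in DLD1-W13CM, 2.06-fold lower (1.9 to 2.24). Both subunits were thus lower, with 2.28 times as much SLC7A5 as SLC3A2 mRNA per length in S-CAFs-w13 and 3.07 times in DLD1-W13CM. SLC7A5 was the highest member in DLD1-W13CM, where its counting interval overlapped that of ATF4, and the third highest in S-CAFs-w13.

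DDIT4, also called REDD1, restrains mTORC1 through the TSC complex. It stood at 104 FPKM in S-CAFs-w13 and 9.81 FPKM in DLD1-W13CM, from at least 1327 and 128 reads, a ratio of 10.6 (8.81 to 12.8). DDIT4 was the second highest member in S-CAFs-w13 and the second lowest in DLD1-W13CM. SESN2, which binds leucine and restrains mTORC1 through the GATOR complexes, stood at 13 FPKM in S-CAFs-w13 and 13.3 FPKM in DLD1-W13CM (ratio 0.974, 0.823 to 1.15). CHAC1, a cytosolic enzyme that breaks down glutathione, stood at 28.7 FPKM in S-CAFs-w13 and 13.4 FPKM in DLD1-W13CM, a ratio of 2.14 (1.78 to 2.58) from at least 367 and 175 reads.

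**Figure D1:**
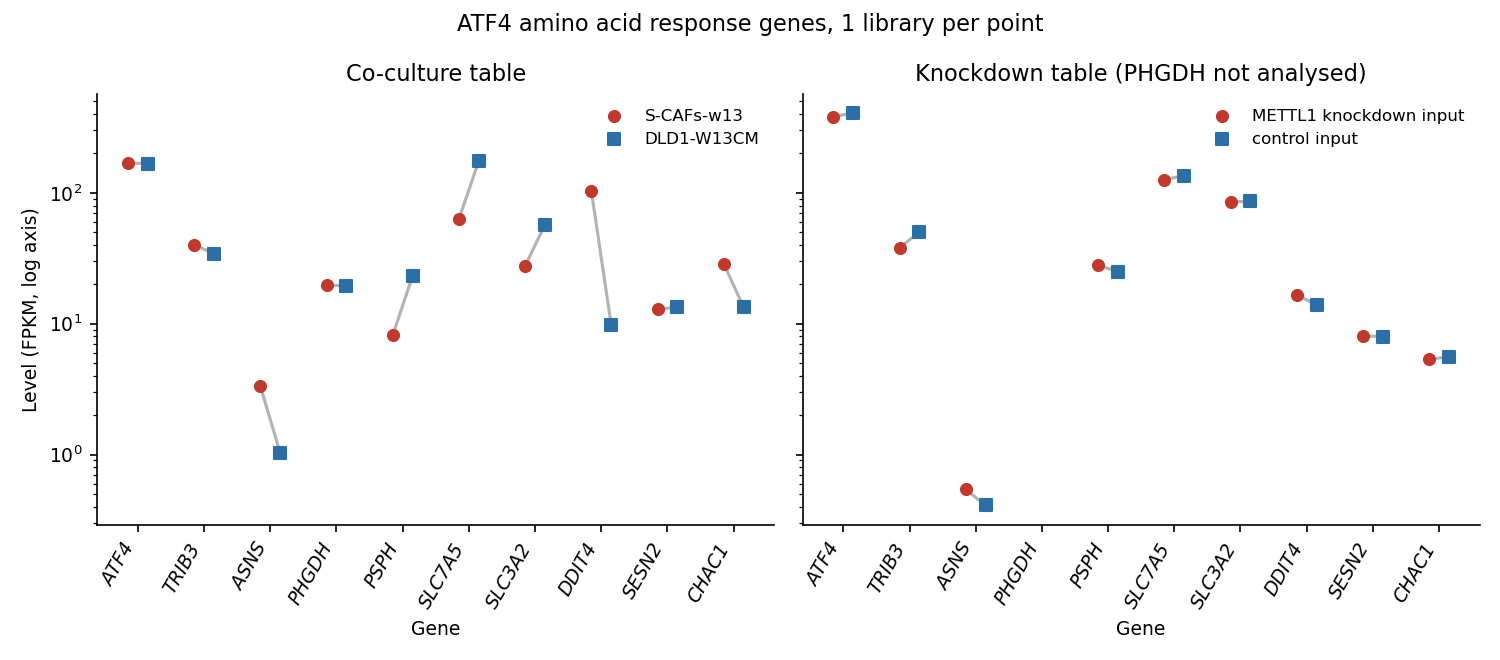
Levels in FPKM (log axis) of the member genes in S-CAFs-w13 and DLD1-W13CM (left panel) and in METTL1 knockdown input and control input (right panel), 1 point per library, with a line joining the pair. DDIT4 stands at 104 FPKM in S-CAFs-w13 and 9.81 FPKM in DLD1-W13CM, while the points of every pair in the right panel lie close together; levels are not comparable across the panels, whose tables were normalized separately.

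The counting interval lay wholly above a ratio of 1 for DDIT4, ASNS, CHAC1 and TRIB3, that is for 4 of 10 members, beside 22.4% of the 20744 genes with recovered reads. It lay wholly below 1 for 3 of 10, SLC7A5, PSPH and SLC3A2, beside 20.2%. With the FPKM as deposited, the interval reached across 1 for ATF4, SESN2 and PHGDH. Of the 2-fold differences, the interval left out 2-fold for DDIT4, ASNS, SLC7A5 and PSPH, and included it for CHAC1 and SLC3A2. An interval narrows with more reads, and the shares over all genes include many with few reads. Here and below, shares by interval are therefore not compared at like depth.

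The 2-fold calls of CHAC1 and ASNS on log2(FPKM + 1) changed with the scaling. The authors' own log2 fold changes in the co-culture table sit 0.14 below the log2 FPKM ratios, and with this shift, or after rescaling without the mitochondrial genome, 1 member, DDIT4, was at least 2-fold higher on log2(FPKM + 1) and the same number, 3, were lower. ASNS then stood at 0.95 on that scale, which the pseudocount of 1 FPKM shrinks for so low a gene; its plain FPKM ratio was 3.23, and its log2 fold change in the authors' deposited table, 1.55, is past 2-fold. The authors' deposited table gave log2 fold changes of 3.26 for DDIT4, 0.95 for CHAC1, -1.62 for SLC7A5, -1.66 for PSPH and -1.19 for SLC3A2. Some members have near copies that could take or give reads in counting. RefSeq lists 4 pseudogenes of ATF4, 5 of ASNS, 2 of SLC7A5 and 1 of PSPH. It also lists 3 genes that overlap ASNS and 3 that overlap SLC7A5, whose effect on the counts was not tested. The PSPH copy, PSPHP1, stood at 5.55 FPKM in S-CAFs-w13 and 6.65 FPKM in DLD1-W13CM, so the PSPH values are uncertain to that extent. The named pseudogenes of the other members that were in the table stood at 2.64 FPKM or less in either library.

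**Figure D2:**
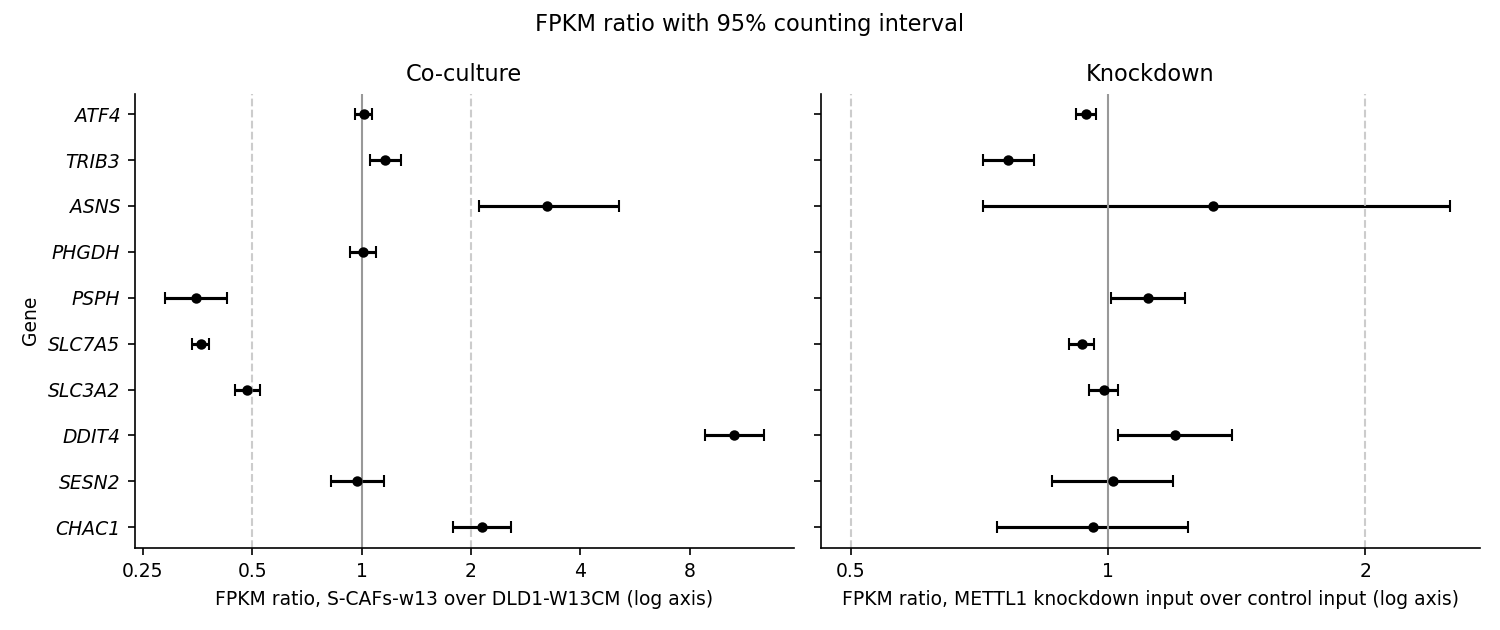
FPKM ratio of each member (log axis), S-CAFs-w13 over DLD1-W13CM (left panel) and METTL1 knockdown input over control input (right panel), with exact 95% counting intervals; the solid line is a ratio of 1 and the dashed lines are 2-fold either way. DDIT4 lies at 10.6 and PSPH at 0.351 in the left panel, while the ratios of all members measured in the right panel lie between 0.764 and 1.33.

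Other genes of the pathway were taken from 9 lists of ATF4-linked functions, which hold 102 genes besides the members, 98 of them in the co-culture table and 89 averaging 1 FPKM or more. Among the 89, 5 reached 2-fold upwards and 6 downwards in S-CAFs-w13, beside 9.08% and 7.92% of all genes, so that 2-fold differences were no more frequent in the lists than in the whole table. The counting interval lay wholly above 1 for 36 of the 98 and wholly below for 31, beside 22.4% and 20.2% of all genes with recovered reads. Those shares are not at like depth, since 89 of the 98 averaged 1 FPKM or more, beside 14739 of all 21519 genes. The lists' genes stood at a median log2(FPKM + 1) ratio of -0.01. This median, and those of single lists in the co-culture below, are from the FPKM as deposited. The median of all genes went from 0.02 as deposited to -0.12 on the authors' scaling and -0.16 after rescaling without the mitochondrial genome. List medians, and counts above or below 0, thus move with the scaling.

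Of 13 amino acid carriers averaging 1 FPKM or more, members included, 12 lay below a log2 ratio of 0, beside 7029 of all 14739 genes, and 3 were 2-fold lower, beside 7.92%. Counting intervals lay wholly below 1 for 10 of the 14 carriers in the table, beside 20.2% of genes with recovered reads, and wholly above 1 for 1, beside 22.4%. The carriers' median log2(FPKM + 1) ratio was -0.59. The third, besides SLC7A5 and SLC3A2, was SLC1A4, a carrier of alanine, serine and cysteine, at 4.82 FPKM in S-CAFs-w13 and 16.5 FPKM in DLD1-W13CM, 3.43-fold lower (2.93 to 4.02). SLC1A5, a glutamine carrier, stood at 87.9 FPKM in S-CAFs-w13 and 133 FPKM in DLD1-W13CM (ratio 0.663, 0.625 to 0.703), and SLC38A1, another glutamine carrier, at 36.4 FPKM in S-CAFs-w13 and 59.9 FPKM in DLD1-W13CM. The carrier above 0 was SLC38A2, a carrier of small neutral amino acids that amino acid shortage is known to induce, at 143 FPKM in S-CAFs-w13 and 71.2 FPKM in DLD1-W13CM (ratio 2, 1.92 to 2.09), just under 2-fold on log2(FPKM + 1).

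Of 9 enzymes of serine and one-carbon metabolism averaging 1 FPKM or more, PSPH and PHGDH included, 8 lay below 0, beside 7029 of all 14739 genes. Of these 2 were 2-fold lower, beside 7.92%, and the median was -0.55. Counting intervals lay wholly below 1 for 7 of the 11 in the table, beside 20.2% of genes with recovered reads, and wholly above 1 for 0, beside 22.4%. PSAT1, the middle enzyme of serine synthesis, stood at 102 FPKM in S-CAFs-w13 and 157 FPKM in DLD1-W13CM (ratio 0.65, 0.607 to 0.695). MTHFD2, a mitochondrial folate enzyme and a known ATF4 target, stood at 68.4 FPKM in both S-CAFs-w13 and DLD1-W13CM (ratio 1, 0.941 to 1.06). SHMT2, the mitochondrial enzyme that turns serine into glycine, stood at 25.3 FPKM in S-CAFs-w13 and 31.6 FPKM in DLD1-W13CM. The second gene past 2-fold was TYMS, which makes thymidylate for DNA synthesis and also belongs with the replication genes, at 13.9 FPKM in S-CAFs-w13 and 59.7 FPKM in DLD1-W13CM, 4.3-fold lower (3.71 to 5.02).

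Other amino acid synthesis genes were mixed, with 6 of 13 above 0 and 7 below and a median of -0.11. ASNS alone was at least 2-fold higher. PYCR3, an enzyme of proline synthesis, alone was at least 2-fold lower, beside 7.92%, at 0.942 FPKM in S-CAFs-w13 and 4.47 FPKM in DLD1-W13CM. ASS1, which makes argininosuccinate in arginine synthesis, stood at 107 FPKM in S-CAFs-w13 and 64.3 FPKM in DLD1-W13CM (ratio 1.66, 1.54 to 1.78). ALDH18A1, the first enzyme of proline synthesis, stood at 47.5 FPKM in S-CAFs-w13 and 35.4 FPKM in DLD1-W13CM, and GOT2, the mitochondrial aspartate aminotransferase, at 58.8 FPKM in S-CAFs-w13 and 63.5 FPKM in DLD1-W13CM.

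Of the 13 genes of the synthetase list, tRNA synthetases and the tRNA exporter XPOT, none reached 2-fold, beside 9.08% of all genes higher and 7.92% lower. The median with the FPKM as deposited was 0.22, with 8 above 0 and 5 below. EPRS, which charges glutamate and proline tRNAs, stood at 114 FPKM in S-CAFs-w13 and 80.7 FPKM in DLD1-W13CM, and GARS, the glycine enzyme, at 60.6 FPKM in S-CAFs-w13 and 75.9 FPKM in DLD1-W13CM.

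Among the stress response factors, DDIT3, also called CHOP, stood at 46.4 FPKM in S-CAFs-w13 and 7.98 FPKM in DLD1-W13CM, a ratio of 5.82 (4.45 to 7.71). PPP1R15B, a subunit that directs a phosphatase to eIF2, stood at 91.4 FPKM in S-CAFs-w13 and 36.3 FPKM in DLD1-W13CM (ratio 2.52, 2.36 to 2.7). Its stress-induced relative PPP1R15A stood at 32.8 FPKM in S-CAFs-w13 and 40.5 FPKM in DLD1-W13CM. ATF5, a relative of ATF4 whose mRNA is likewise translated under stress, stood at 2.29 FPKM in S-CAFs-w13 and 16.1 FPKM in DLD1-W13CM, 7.05-fold lower (5.09 to 9.99). Of 11 such factors averaging 1 FPKM or more, members included, 2 were at least 2-fold higher and 1 lower, with a median of 0.21.

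Of the brakes on mTORC1, 3 of 10, the member DDIT4 among them, reached 2-fold upwards (9.08% of all genes) and 0 downwards (7.92%), and the median was 0.47. These were DDIT4, SESN3, a relative of SESN2, at 7.67 FPKM in S-CAFs-w13 and 2.3 FPKM in DLD1-W13CM (ratio 3.34, 2.78 to 4.02), and DEPTOR, a subunit that inhibits mTOR, at 2.52 FPKM in S-CAFs-w13 and 0.662 FPKM in DLD1-W13CM (ratio 3.8, 1.92 to 8.2). Of 8 glutathione genes, 2 were at least 2-fold lower, beside 7.92% of all genes, and 1 was higher, beside 9.08%, namely CHAC1. CHAC2, its constitutive relative, was 2.99-fold lower (1.78 to 5.23) and GGCT, which acts on gamma-glutamyl amino acids, 2.48-fold lower (1.65 to 3.81). With the FPKM as deposited, the ER chaperone list, the stress arm beside ATF4, lay above 0 for 12 of 12 genes, beside 7710 of all 14739. Of these 4 were at least 2-fold higher, beside 9.08%, and the median was 0.61. The lowest log2 ratio was 0.02, so the count of 12 rests on the scaling. The authors' deposited table gave CRELD2 of this list, named after its value was seen, a log2 fold change of -0.12. HSPA5, the chaperone BiP, stood at 1733 FPKM in S-CAFs-w13 and 165 FPKM in DLD1-W13CM, and HERPUD1, a part of ER-associated degradation, at 123 FPKM in S-CAFs-w13 and 12.7 FPKM in DLD1-W13CM, with ratios of 10.5 and 9.69. The others past 2-fold, named after their values were seen, were PDIA4 and MANF.

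**Figure D3:**
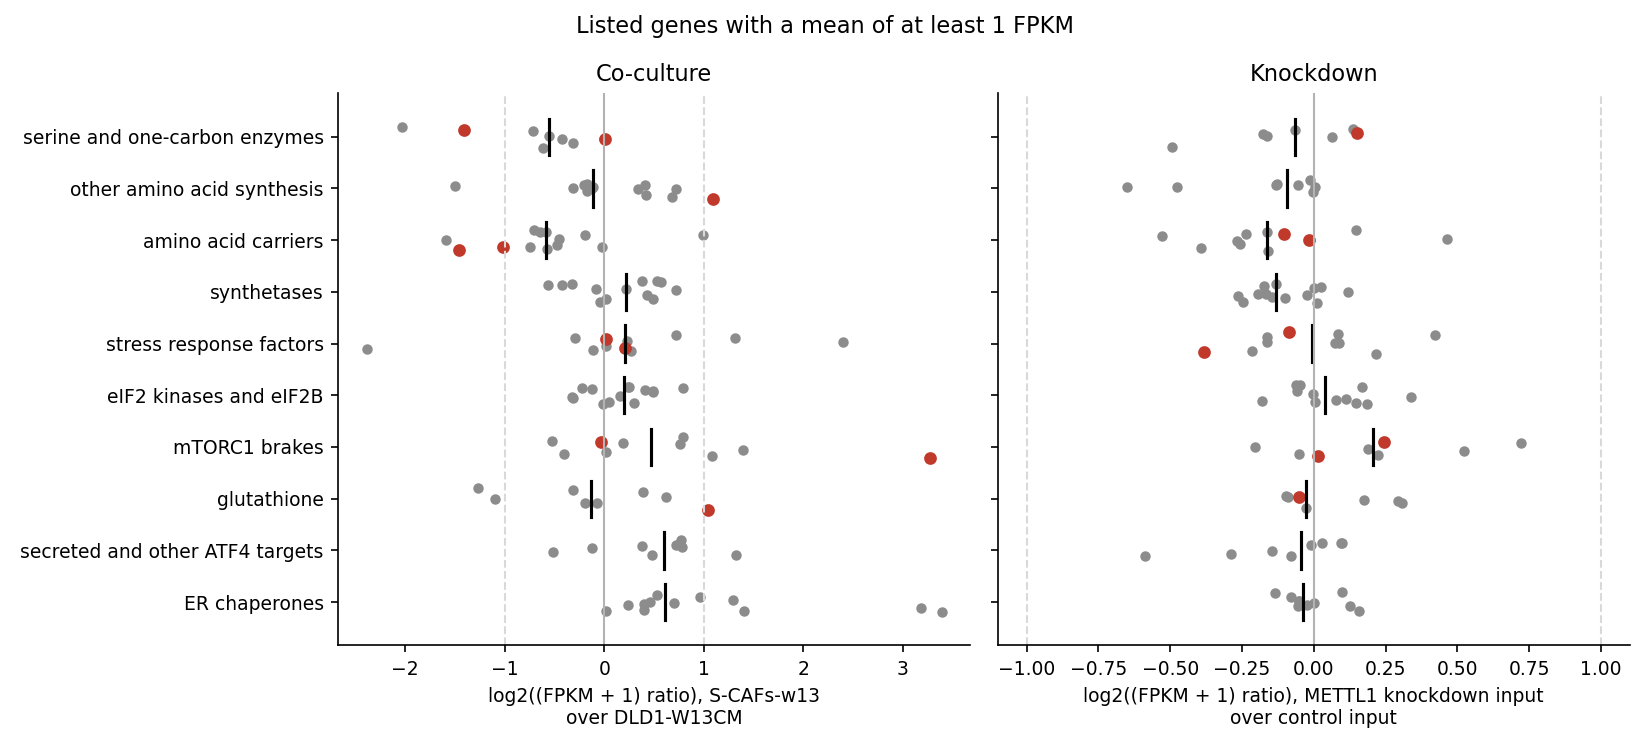
log2(FPKM + 1) ratio of each listed gene with a mean of at least 1 FPKM, S-CAFs-w13 over DLD1-W13CM (left panel) and METTL1 knockdown input over control input (right panel); members are red, other genes grey, black bars are list medians and dashed lines mark 2-fold. In the left panel the carriers have a median of -0.59 and the ER chaperones of 0.61, and in the right panel no gene reaches a dashed line; the panels have different x axes.

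Between METTL1 knockdown and control the members stayed close together, and TRIB3 differed most among those with more than 100 reads. On log2(FPKM + 1), 0 of the 8 members averaging 1 FPKM or more were 2-fold higher or lower, beside 0.429% of 8400 genes that were higher and 0.56% that were lower, so that a count of 0 among 8 genes is no result about them. ASNS, the ninth, fell under the filter. The members' median over these 8 was -0.03, beside 0.01 over all genes.

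TRIB3 stood at 38.2 FPKM in knockdown input and 50 FPKM in control input, from at least 1524 and 1795 reads, 1.31-fold lower (1.22 to 1.4). The authors' deposited table gave TRIB3 a log2 fold change of -0.40 (adjusted p 6.7e-14), a value that cannot cover the spread between cultures. ATF4 stood at 383 FPKM in knockdown input and 407 FPKM in control input (ratio 0.942, 0.917 to 0.967). SLC7A5 stood at 126 FPKM in knockdown input and 136 FPKM in control input (ratio 0.931, 0.9 to 0.963). These 3 members had counting intervals wholly below 1.

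DDIT4 stood at 16.6 FPKM in knockdown input and 13.9 FPKM in control input (ratio 1.2, 1.03 to 1.4), and PSPH at 27.9 FPKM in knockdown input and 25 FPKM in control input (ratio 1.11, 1.01 to 1.23). Their intervals lay wholly above 1 with the FPKM as deposited, but this depends on the scaling. After both libraries were rescaled to the same total, the log2(FPKM + 1) ratios were 0.18 for DDIT4, 0.08 for PSPH and -0.08 for SLC3A2. The half-widths of their log2 counting intervals were 0.22, 0.14 and 0.06. On that scaling DDIT4 and PSPH were no longer clear of 0, and SLC3A2 was below it. As deposited, 2 of 9 members thus lay above 1 and 3 of 9 below it, beside 23.8% and 22.4% of the 9292 genes with recovered reads. Counts of this size are near the shares of the table as a whole.

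The other members' intervals included 1 with the FPKM as deposited. SLC3A2 stood at 85.3 FPKM in knockdown input and 86.4 FPKM in control input, SESN2 at 8.07 FPKM in knockdown input and 7.98 FPKM in control input, and CHAC1 at 5.35 FPKM in knockdown input and 5.58 FPKM in control input. ASNS stood at 0.541 FPKM in knockdown input and 0.408 FPKM in control input, from at least 28 and 19 reads, and its interval, 0.714 to 2.51, is too wide to show a 2-fold difference or to leave one out. The order of the 9 members by level was the same in both lines, with ATF4 highest and ASNS lowest, and SLC7A5 at 1.48 times SLC3A2 in knockdown input and 1.57 times in control input.

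On log2(FPKM + 1), 0 of the 76 other listed genes averaging 1 FPKM or more reached 2-fold after METTL1 knockdown, which at the shares of 0.429% and 0.56% over all genes is no result about them, and their median was -0.05. Of the carriers, members included, 9 of 11 lay below 0 and 2 above, with a median of -0.16, beside 4103 of all 8400 genes below 0. This lean was not particular to carriers. Of the synthetase list 10 of 13 lay below 0, with a median of -0.13. The brakes on mTORC1 went the other way, with 6 of 8 above 0 and a median of 0.21. SLC7A8, a relative of SLC7A5, was higher at 86.1 FPKM in knockdown input and 62.1 FPKM in control input (ratio 1.39, 1.33 to 1.44). SLC7A11, the cystine carrier, stood at 3.19 FPKM in knockdown input and 4.5 FPKM in control input (1.41-fold lower, 1.23 to 1.62). MTHFD2 stood at 24.6 FPKM in knockdown input and 35.1 FPKM in control input (1.42-fold lower, 1.33 to 1.53). CTH, which makes cysteine, stood at 1.35 FPKM in knockdown input and 2.69 FPKM in control input, from at least 38 and 68 reads, 1.99-fold lower (1.32 to 3.04). The authors' deposited table gave CTH a log2 fold change of -1.01, past 2-fold. CASTOR2, a member of the arginine sensor family, stood at 24.6 FPKM in knockdown input and 14.5 FPKM in control input (ratio 1.69, 1.43 to 2.02). SLC7A11, MTHFD2 and CTH were chosen after their values were seen.

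The knockdown table holds 9450 genes and 9450 m7G peaks, so by its layout each of its 9 members has 1 listed peak. Of the members' peaks, 7 were annotated to the 5' UTR and 2, in SLC7A5 and CHAC1, to the coding sequence. Of all 9450 peaks, 49.5% were annotated to the 5' UTR. Positions are taken as GRCh38, the human build named in the submitters' notes. The 5' cap of mRNA is itself an m7G, and the table does not separate it from internal m7G near a 5' end.

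The middle of the peak lay downstream of the nearest RefSeq start by 83 bases in SESN2, 101 in CHAC1, 114 in DDIT4, 122 in ATF4, 127 in SLC3A2 and 139 in SLC7A5, counted along the genome. It lay 38 bases upstream of the nearest listed start in ASNS and 308 upstream in TRIB3. Thus 7 of 8 members with a start in the table had their peak within 250 bases of it, beside 65.4% of the 6965 peaks for which a start was listed. The peaks annotated to the coding sequence in CHAC1 and SLC7A5 thus lay about as near to a gene start as the peaks of DDIT4, ATF4 and SLC3A2 annotated to the 5' UTR.

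**Figure D4:**
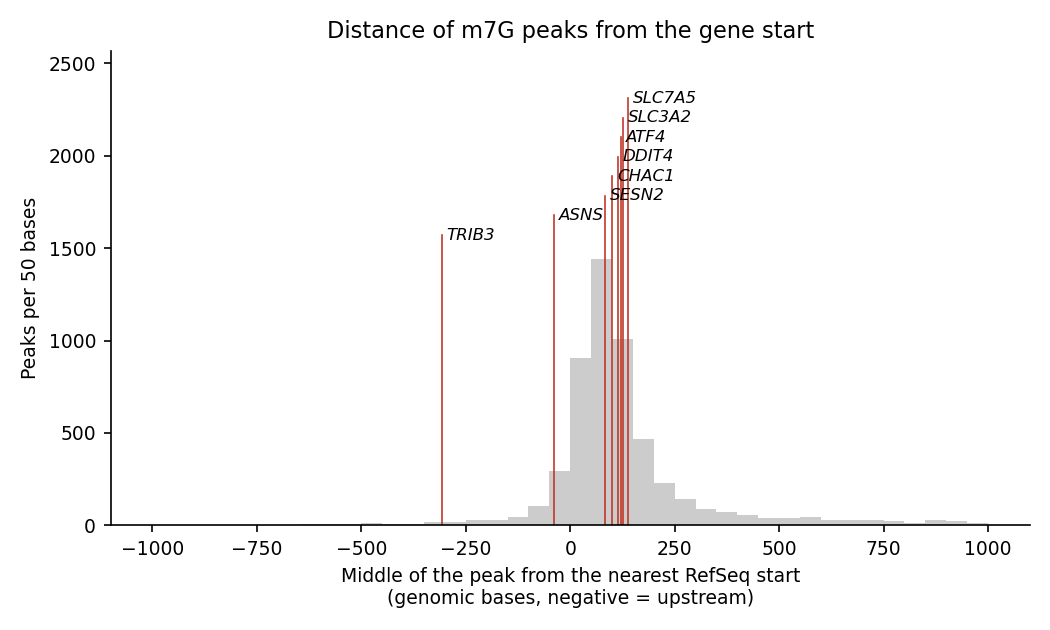
Distance in genomic bases from the nearest RefSeq start to the middle of each m7G peak (negative is upstream); grey bars count all peaks of the table over the range drawn, in bins of 50 bases, and red lines mark the 8 members with a listed start, their height serving only to place the names. Of these, 6 lie between 83 and 139 bases downstream, in the 2 highest grey bars, and TRIB3 lies 308 bases upstream.

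The strength of the peaks differed among members. In the authors' deposited table, ATF4 (chromosome 22, 39520520 to 39520849) had a fold enrichment of IP over input of 58.6, above 97% of all peaks, and the median of all 5' UTR peaks was 14.9. PSPH (chromosome 7, 3 blocks between 56033981 and 56051604) had 25.5 and SLC3A2 (chromosome 11, 62856102 to 62856371) had 22.7, which are above 81.7% and 77.4% of all peaks. SLC7A5 (chromosome 16, 87869249 to 87869488) had 16.6, TRIB3 (chromosome 20, 2 blocks between 380681 and 381294) had 13.4 and SESN2 (chromosome 1, 28259527 to 28259676) had 12.4. The weakest were ASNS (chromosome 7, 2 blocks between 97872148 and 97872542) at 8.77, DDIT4 (chromosome 10, 72273920 to 72274158) at 8.69 and CHAC1 (chromosome 15, 40953469 to 40953677) at 5.34. The members' median of 13.4 lay beside 12.4 for all peaks. Over which libraries the enrichment was taken is not stated.

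The change in m7G between the lines is read here as knockdown over control. The table names no direction, and under the opposite reading every sign below turns round. Of the 9 member peaks 3 had a higher value in the knockdown and 6 a lower one, with a median log2 change of -0.32, beside 0.004 over all peaks. By the FDR of the authors' deposited table, 1 of 9 was changed below 0.05, SLC7A5, beside 5.25% of all peaks. The authors' deposited table put SLC7A5 at a log2 change of 0.441 (FDR 0.0316), while its input mRNA stood at a ratio of 0.931. At an unadjusted p under 0.05 in the authors' deposited table, 5 of 9 were changed, beside 16.1% of all peaks. These were SLC7A5, ATF4, ASNS, PSPH and CHAC1.

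In the authors' deposited table ATF4 was at -0.32 on the log2 scale (p 0.00427, FDR 0.0794). PSPH was at -0.839 in the authors' deposited table (FDR 0.215). A pair of members lay at the ends of the whole table's range, both by the authors' deposited table. ASNS was at -3.39, higher than 0.0423% of peaks (FDR 0.2), and CHAC1 at 3.02, higher than 99.9% of peaks (FDR 0.346). ASNS had at least 28 and 19 reads in knockdown and control input, and CHAC1 at least 128 and 120. Whether read number had a part in these changes was not tested. SESN2 (-0.737), DDIT4 (-0.637), SLC3A2 (-0.156) and TRIB3 (0.206) had FDRs between 0.501 and 0.7 in the authors' deposited table. Counts of IP reads per line were not analysed here, so no counting interval can be given for these changes.

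**Figure D5:**
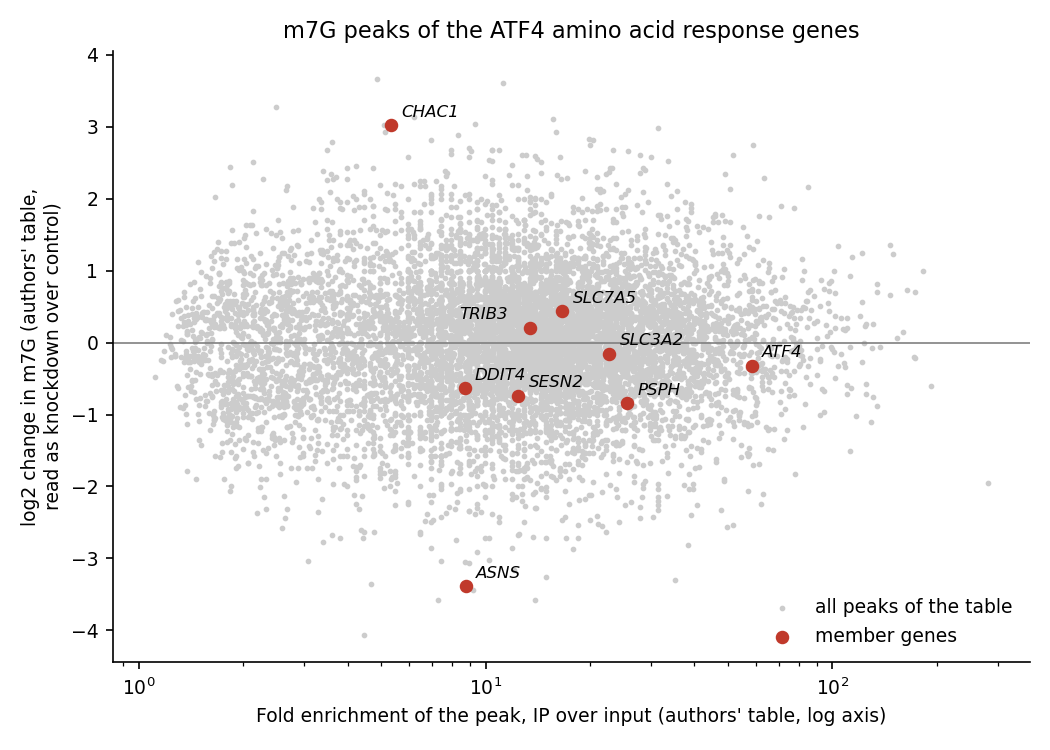
Each point is 1 m7G peak of the authors' deposited table, with its fold enrichment of IP over input on the x axis (log axis) and its log2 change in m7G, read as knockdown over control, on the y axis; member genes are red. ATF4 stands far right at 58.6, ASNS at -3.39 near the lower edge and CHAC1 at 3.02 near the upper edge, while the other members lie between -0.839 and 0.441.

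Of the other listed genes 78 had a peak, 46 of them in the 5' UTR. By the FDR of the authors' deposited table, 2 of the 78 were below 0.05, beside 5.25% of all peaks. Such peaks were thus no more frequent in the lists than among all peaks. Both were higher under this reading. TYMS had a log2 change of 0.514 and an FDR of 1.4e-06 in its coding sequence peak, whose fold enrichment was 92.3. GDF15, a secreted stress cytokine, had 0.699 and 0.00447. The fold enrichment of the GDF15 peak was only 1.35, above 0.296% of all peaks. The median log2 change of the 78 was -0.02.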

How the data were processed

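Expression was measured by RNA-seq in S-CAFs-w13 and DLD1-W13CM and by input RNA beside m7G immunoprecipitates in METTL1 knockdown and control cells, 1 library per group. Per the submitters' processing notes, cutadapt 2.5, HISAT2 2.1.0, featureCounts 1.6.3, DESeq2, SAMtools 1.10 and HOMER 4.10.4 were used, with the builds GRCh38, hg38 and GRCm38 and no step named. No source used here names the peak caller. Per the file names, the authors deposited FPKM in the co-culture table. The unit of the knockdown input columns is inferred from like values. Per the file headers, each gene has a log2 fold change and p-value from the authors. Per the file headers, each peak has a fold enrichment (ratio), a log2 change in m7G and, on a log10 scale, its p and FDR.

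The ratio of a table's FPKM columns is a constant times a fraction of 2 whole numbers, which gave the smallest whole read numbers that leave gene lengths whole (in both tables, where a gene is in both; ratio tolerance 1e-13). RefSeq lengths set the scale, of which 77.1% matched, and co-culture lengths that of the knockdown table, of which 90.1% matched. Reads could be recovered for 99.7% (co-culture) and 99.4% (knockdown) of the genes that no library of the table lists at 0. Exact (Clopper-Pearson) 95% intervals of a ratio and Poisson intervals of a level come from these reads. PCR copies are not independent, so these intervals hold counting error and nothing else. The recovery was tested on simulated data. Peak starts were taken as BED starts and printed 1-based.

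With 1 library per group no test between libraries was possible. All 10 members are named, with every listed gene past 2-fold and otherwise up to 3 per list by level; genes outside this rule are said to be so. The members and lists were chosen with earlier results of these data known. Alternatives were a pseudocount of 0.1 FPKM, no filter or a mean of at least 5 FPKM, other scalings, other thresholds for m7G, the other m7G direction and longer motifs. Python 3.11.15, numpy 2.4.6, pandas 2.3.3, scipy 1.17.1 and matplotlib 3.10.9 were used.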

Additional observations from a re-analysis of the deposited data

How the results depend on the processing

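No paired analysis was possible because each group held 1 library. In the co-culture comparison the members at least 2-fold higher were 3, and 1 on the authors' scaling and 1 after rescaling without the mitochondrial genome; with a mean of at least 5 FPKM, which leaves ASNS out, they were 2. The 3 lower members stayed 3 under every alternative run. That rescaling moved the members' median log2 ratio to -0.20, against 0.01 as deposited, with the median of all genes at -0.16, and put TRIB3 at -0.01 (-0.0081 unrounded). The share of higher genes among all 2-fold calls was 53.4% as deposited, 39.0% on the authors' scaling and 35.4% after that rescaling. A mean of at least 5 FPKM left 2 of the other listed genes at least 2-fold higher. With a pseudocount of 0.1 FPKM, 1939 of all genes were 2-fold higher and 1777 lower in the co-culture, and 103 higher and 112 lower in the knockdown, where the main counts were 36 and 47 and a mean of at least 5 FPKM gave 7 and 16. No member and no other listed gene passed 2-fold in the knockdown under any alternative run. At an unadjusted p under 0.05, 5 of 9 members and 16 of 78 other listed genes had a changed peak, beside 16.1% of all peaks. At an FDR under 0.01, 0 members had one. Read as control over knockdown, the m7G change of SLC7A5 is -0.441, the members' median 0.32 and that of the other listed genes 0.023. Of the longer motifs, TGATGCAAT matched 0 members and TGATGAAAC 1. The cause of these shifts was not tested beyond what each alternative changes by construction. Depth limits ASNS most, with at least 19 to 92 reads a library.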

Other observations

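Of 14 genes that act before ATF4, eIF2 kinases, their regulators and subunits of eIF2 and eIF2B, 0 reached 2-fold between S-CAFs-w13 and DLD1-W13CM on log2(FPKM + 1), beside 9.08% of all genes that were higher and 7.92% lower, with 9 above 0, 5 below and a median of 0.20. The largest log2 ratio was 0.79. Counting intervals lay wholly above 1 for 7 of the 14 and wholly below for 2, beside 22.4% and 20.2% of all genes with recovered reads. GCN1, which couples the kinase GCN2 to ribosomes, stood at 50.2 FPKM in S-CAFs-w13 and 35.5 FPKM in DLD1-W13CM, a ratio of 1.41 with a counting interval of 1.34 to 1.49. EIF2S3 and EIF2S2, subunits of eIF2, stood at 83.4 and 63.1 FPKM in S-CAFs-w13, against 70.4 and 69 FPKM in DLD1-W13CM.

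Among secreted and other ATF4 targets, GDF15, a cytokine that stress induces, stood at 92 FPKM in S-CAFs-w13 and 131 FPKM in DLD1-W13CM (ratio 0.7, 0.649 to 0.753). BBC3, which promotes apoptosis, stood at 5.46 FPKM in S-CAFs-w13 and 1.59 FPKM in DLD1-W13CM (ratio 3.44, 2.3 to 5.28). TNFRSF10B, a death receptor, stood at 48.9 FPKM in S-CAFs-w13 and 28.1 FPKM in DLD1-W13CM (ratio 1.74, 1.6 to 1.89). BBC3 was the 1 gene of 8 in this list to reach 2-fold, beside 9.08% of all genes that were higher.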
